A study of Rattus norvegicus with 12 samples.

Results

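The miR-17 to miR-92a and miR-106b-25 clusters are groups of miRNA genes that lie side by side and are transcribed together. Both are known for their high expression in dividing cells. They were followed here in acinar cells of the developing rat parotid gland. The 10 miRNAs were chosen by name: miR-17, miR-18a, miR-19a, miR-20a, miR-19b and miR-92a of the miR-17 to miR-92a cluster, miR-106b, miR-93 and miR-25 of the miR-106b-25 cluster, and miR-20b of the related miR-106a-363 cluster. Of the 375 miRNA assays in the table, 10 measured the guide strand (the strand that is loaded into the silencing complex) of 9 of these miRNAs. miR-20b had both a mouse and a rat assay, and miR-92a was not analysed here.

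The cells came from albino Sprague Dawley rats, untreated, at embryonic day 20 (E20) and at postnatal days 5, 15 and 25 (P5, P15 and P25). Each age had 3 samples from separate litters, so there were 12 samples in all. Acinar cells were cut from stained sections by laser capture microdissection, a method that lifts chosen cells out of a tissue, and the lysates of several caps of 1 sample were combined. RNA was measured by qRT-PCR on a panel with primers for 1 small RNA per well, and the threshold cycle (CT), the PCR cycle at which the signal appears, was the measurement. A lower CT means more template.

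A miRNA guides the silencing complex to mRNAs that pair with its seed, the bases from position 2 to position 8. The miR-17 to miR-92a cluster is switched on by Myc and E2F factors. Its miR-17 and miR-20a dampen E2F factors and the cell cycle inhibitor Cdkn1a. The miR-106b-25 cluster lies within Mcm7, a gene for a subunit of the helicase that opens DNA for replication. In the salivary gland, acinar cells divide in the embryo and the young animal and then mature into secretory cells.

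The mature sequences show which members share a seed, since a shared seed means a largely shared set of possible targets. They are the rat sequences of RefSeq (assembly GRCr8), matched by name for all 10 members, and the seed is in capitals. Most assays carry mouse names, and their primer sequences were not used here. The first group shares the seed AAAGUGC.
miR-17-5p: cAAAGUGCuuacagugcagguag
miR-20a-5p: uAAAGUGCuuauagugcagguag
miR-20b-5p: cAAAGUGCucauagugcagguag
miR-93-5p: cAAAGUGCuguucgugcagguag
miR-106b-5p: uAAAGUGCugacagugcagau
miR-18a stands alone, with a seed that differs from the first group.
miR-18a-5p: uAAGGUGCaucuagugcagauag
The miR-19 pair shares the seed GUGCAAA.
miR-19a-3p: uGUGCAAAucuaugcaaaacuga
miR-19b-3p: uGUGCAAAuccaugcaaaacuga
miR-25 and miR-92a share the seed AUUGCAC, 1 from each cluster.
miR-25-3p: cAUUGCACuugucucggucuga
miR-92a-3p: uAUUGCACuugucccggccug

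Within a seed group the sequences are close. miR-19a and miR-19b differ by 1 base, miR-17 differs from miR-20a and from miR-20b by 2 bases each, and miR-17 and miR-106b differ by 5 (counted as the fewest single-base changes, insertions or deletions). Whether an assay also amplified its near neighbours was not tested. The miR-17 to miR-92a cluster lies at chr15:98587861-98588622 on the plus strand, where the mature sequences of its 6 genes span 762 bases. The miR-106b-25 cluster lies at chr12:22156652-22157123 on the minus strand, a span of 472 bases inside Mcm7. The miR-106a-363 cluster lies at chrX:137342788-137343637 on the minus strand. In RefSeq the mature miR-17, miR-19b and miR-92a have a gene on chromosome X as well as on chromosome 15, so the miR-17 and miR-19b assays cannot tell the copies apart.

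The promoter of Mcm7 is shown because the 3 miRNAs of the miR-106b-25 cluster share this host gene. The RefSeq promoter, 250 bases before the gene start and 50 after it, was searched on both strands for the E2F motif in the 4 forms TTTCCCGC, TTTCGCGC, TTTGCCGC and TTTGGCGC. It held 2 matches that do not overlap each other, in capitals in the windows below, which lie at chr12:22163393-22163422 and chr12:22163212-22163241 (GRCr8, minus strand).
Upstream match, in reverse orientation: aatttcgaaccGCGGGAAAtcgggtgccca
Match nearer the start: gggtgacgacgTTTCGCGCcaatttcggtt
Of 33469 promoters of that length, 2.14% held at least 1 match. A match is a run of letters and not a measured binding site.

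Depth on these arrays is the number of assays with a CT, and it fell with age. At E20, 282 to 306 of the 375 miRNA assays gave a CT. The number was 224 to 307 at P5, then 179 to 273 at P15, and 202 to 223 at P25. P15 replicate 1, with 179, and P5 replicate 1, with 224, had the fewest of their ages. Markers of the captured cells were present: all 9 assays of 7 epithelial miRNAs had a CT in all 12 samples, and 2 of 2 secretory miRNAs (miR-375 and miR-148a) rose from E20 to P25, with a median change of 6.65 on the log2 scale. Among miRNAs of other cell types, 2 of 3 tested striated muscle assays fell from E20 to P25 (median change -4.07), and 1 of 6 tested smooth muscle and fibroblast assays fell and 1 rose. None of 5 leukocyte, 1 endothelial and 2 neural assays passed the test, and none of 3 erythrocyte assays could be tested. From E20 to P25, wells with a CT went from 9 to 4 of 9 for erythrocyte miRNAs. They went from 24 to 17 of 24 for leukocyte and from 10 to 6 of 12 for neural miRNAs. For endothelial and for smooth muscle and fibroblast miRNAs every well had a CT at both ages. The summed erythrocyte level was between 0.88 and 2.70 at E20 and between -2.24 and 0.94 at P25. The summed level of the striated muscle assays was between 4.36 and 6.23 at E20 and between 0.17 and 1.88 at P25, so it moved in the same direction as the clusters. The part of these other cell types in the results below was not tested.

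Each value below is how many cycles earlier a miRNA came up than the middle (median) of all miRNAs found on the same array. It is a log2 scale on which 1 unit is about 2 times more template and 0 is that middle. Fewer miRNAs were found at P25 than at E20, so that middle was taken over a smaller set at P25. Differences between assays also depend on how well each primer pair works, so levels are ordered within an assay and only loosely between assays. miR-20a and miR-19b were the highest members, with CTs from 24.7 to 30.6 and from 24.8 to 30.8. miR-106b was among the lowest of the members found in every sample, with CTs from 30.5 to 39.2.

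**Figure D1:**
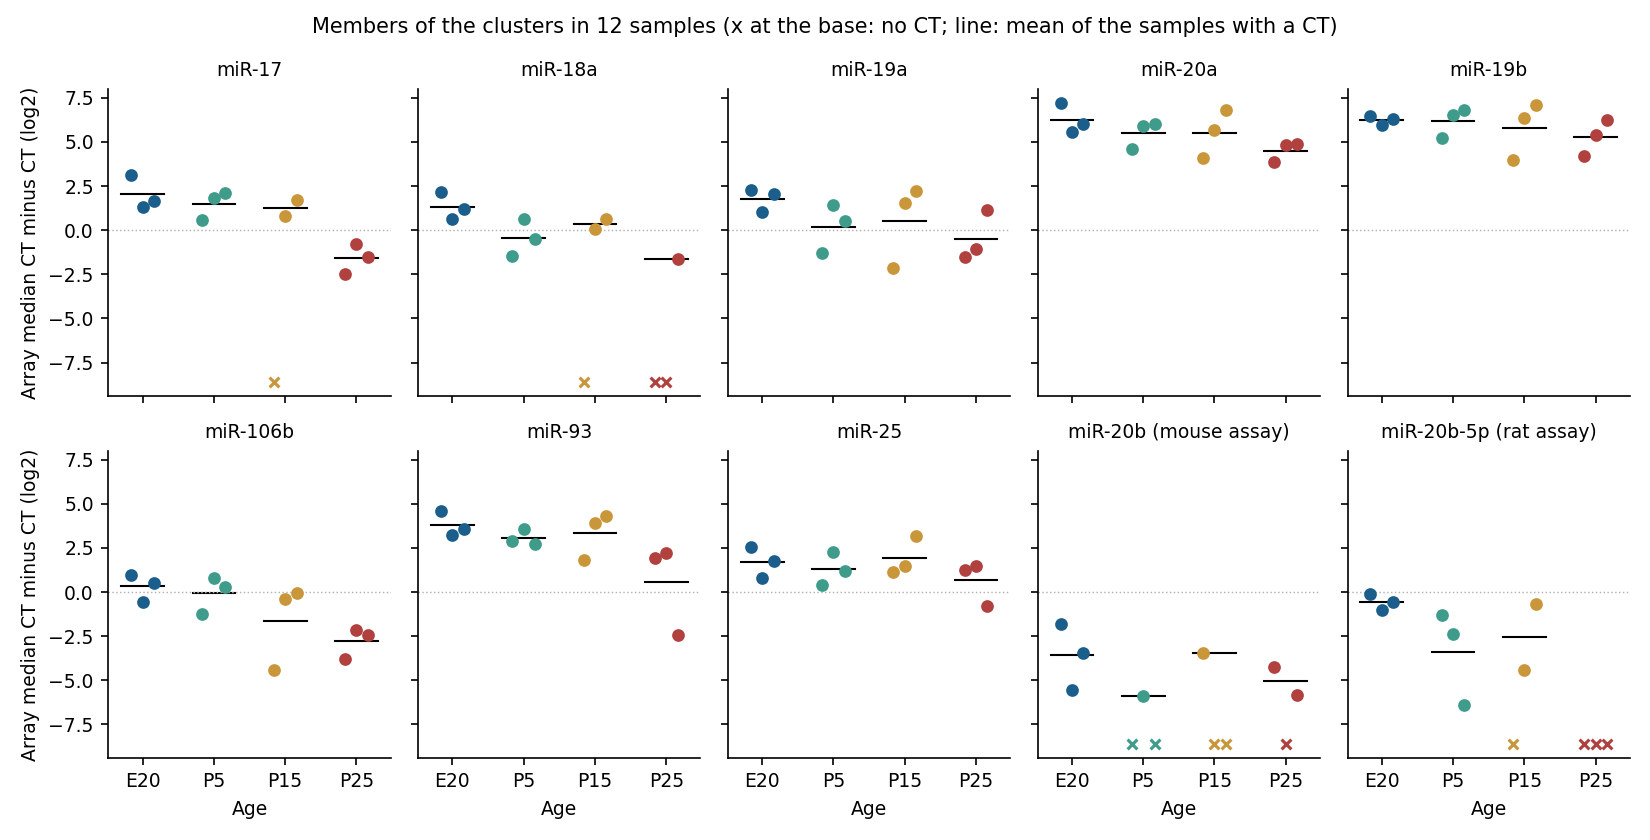
Values of the 10 member assays (array median CT minus CT, log2, vertical axis) in the 12 samples by age (horizontal axis). Points are samples, lines are means of the samples with a CT, and crosses at the base are samples without a CT. The miR-17 values at P25 lie between -2.48 and -0.77, under every measured value of the earlier ages. P15 replicate 1 had no miR-17 CT. miR-19b at P25 overlaps its E20 values.

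miR-17, the miRNA that gives the first cluster its name, fell between E20 and P25 and was the 1 member that passed the test. Its values were 3.14, 1.29 and 1.67 in the E20 samples and 0.57, 1.85 and 2.08 at P5. They were 0.82 and 1.71 in the 2 P15 samples with a CT, and -2.48, -0.77 and -1.54 at P25. The samples of E20, P5 and P15 with a CT overlapped one another. All 3 P25 samples lay under all 8 of these. P15 replicate 1 has no value to compare, so it may lie lower. The fitted change from E20 to P25 was -3.63 ± 0.87 (SE), a level 12.4 times lower at P25 (limma, adjusted p = 0.0124). The miR-17 CTs were from 28.8 to 30.9 at E20 and from 34.5 to 36.7 at P25. The P25 wells thus came up late, where a CT of 40 counts as not detected. The fit used an imputed value for P15 replicate 1, which had no CT. In bulk RNA, fewer cells that hold a miRNA and less of it per cell cannot be told apart. The call was lost without either of 2 samples: the adjusted p was 0.0701 without E20 replicate 1 and 0.0583 without P25 replicate 1, while the changes were -3.08 and -3.19. It was also lost when missing wells were given a CT of 40 (change -3.63, adjusted p = 0.175) and when small nuclear RNAs were the reference (-2.81, 0.981), where no assay of the 192 was called. Over all settings run the change was between -5.35, without normalization, and -2.55, with a CT in at least 6 of 12 samples and the median after imputation.

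miR-20a, the nearest relative of miR-17 in the same cluster, was lower at P25 by less. Its values were 7.21, 5.56 and 6.04 at E20, 4.60, 5.92 and 6.02 at P5, 4.10, 5.65 and 6.82 at P15, and 3.83, 4.81 and 4.85 at P25. The P25 samples lay under the E20 samples but among those of P5 and P15. The change from E20 to P25, -1.77 ± 0.83, did not pass the test (limma, adjusted p = 0.154).

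miR-19a and miR-19b, the pair with the miR-19 seed, overlapped between E20 and P25. The miR-19a values were 2.27, 1.03 and 2.03 at E20, -1.30, 1.40 and 0.51 at P5, -2.16, 1.55 and 2.21 at P15, and -1.53, -1.05 and 1.12 at P25. The lowest was that of P15 replicate 1, the array with the fewest detected miRNAs. The fitted change was -2.26 ± 1.11 (limma, adjusted p = 0.172). The miR-19b values were 6.45, 5.94 and 6.31 at E20, 5.23, 6.53 and 6.80 at P5, 3.96, 6.35 and 7.07 at P15, and 4.21, 5.37 and 6.25 at P25. Its change was -0.95 ± 0.88 (limma, adjusted p = 0.470), and -0.42 without P25 replicate 1 and -1.44 without P25 replicate 3.

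miR-18a could not be tested, because it had a CT in 1 of 3 samples at P25. Its values were 2.19, 0.61 and 1.20 at E20 and -1.44, 0.62 and -0.49 at P5. The 2 P15 samples with a CT had 0.06 and 0.64, and the 1 P25 sample had -1.66, under all its other values. The P25 samples without a CT have no value to compare, so they may lie lower. With a looser filter that needs 2 of 3 replicates at 1 age only, the missing values were imputed and the change was -2.66 (limma, adjusted p = 0.0589). It was -1.58 (adjusted p = 0.127) when 6 of 12 samples had to have a CT and imputation came before the median.

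None of the 3 members of the miR-106b-25 cluster passed the test between E20 and P25. The miR-106b values were 0.99, -0.55 and 0.52 at E20, -1.24, 0.81 and 0.28 at P5, -4.42, -0.40 and -0.07 at P15, and -3.81, -2.14 and -2.43 at P25. All P25 samples lay under all E20 and P5 samples, and P15 replicate 1 lay lower still. The change from E20 to P25 was -3.12 ± 1.05, with an adjusted p of 0.0626 (limma). Without P15 replicate 1, miR-106b and miR-93 passed this test too, which raised the number of members called from 1 to 3. In the same fit 39 of all 192 assays were called in either direction, beside 23 with every sample kept.

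For miR-93 the values were 4.62, 3.26 and 3.57 at E20, 2.90, 3.60 and 2.73 at P5, 1.79, 3.92 and 4.31 at P15, and 1.91, 2.19 and -2.44 at P25. P25 replicate 3 stood far under the other two. The change was -3.26 ± 1.09 (limma, adjusted p = 0.0622), and without P25 replicate 3 it was -1.77. miR-25, which carries the other seed of this cluster, had 2.56, 0.77 and 1.75 at E20, 0.38, 2.28 and 1.21 at P5, 1.15, 1.50 and 3.19 at P15, and 1.27, 1.50 and -0.77 at P25. Its P25 samples overlapped those of every earlier age, again with replicate 3 the lowest, and its change was -1.03 ± 0.88 (limma, adjusted p = 0.440). That change was -0.31 without P25 replicate 3 and -0.60 without E20 replicate 1.

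miR-20b, from the miR-106a-363 cluster, was missing from many samples, with a CT in 8 of 12 by the rat assay and in 7 of 12 by the mouse assay, and neither assay was tested. The rat assay gave -0.09, -1.03 and -0.55 at E20, -1.32, -2.37 and -6.42 at P5, -4.43 and -0.70 in 2 of 3 samples at P15, and no CT in any of the 3 samples at P25. The mouse assay gave -1.78, -5.52 and -3.46 at E20, -5.90 in 1 sample at P5, -3.44 in 1 sample at P15, and -4.22 and -5.80 in 2 samples at P25. Both assays had a CT in 4 samples, where the mouse assay came up between 1.69 and 4.50 cycles later. The assays did not give the same picture at P25, where the mouse assay was positive in 2 samples and the rat assay in 0. Under the looser filter, with imputed values, their changes from E20 to P25 were -2.16 (rat, limma, adjusted p = 0.218) and -0.83 (mouse, 0.605). With a CT in at least 6 of 12 samples and the median taken after imputation they were -0.90 and 0.37, so the mouse assay changed sign.

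**Figure D2:**
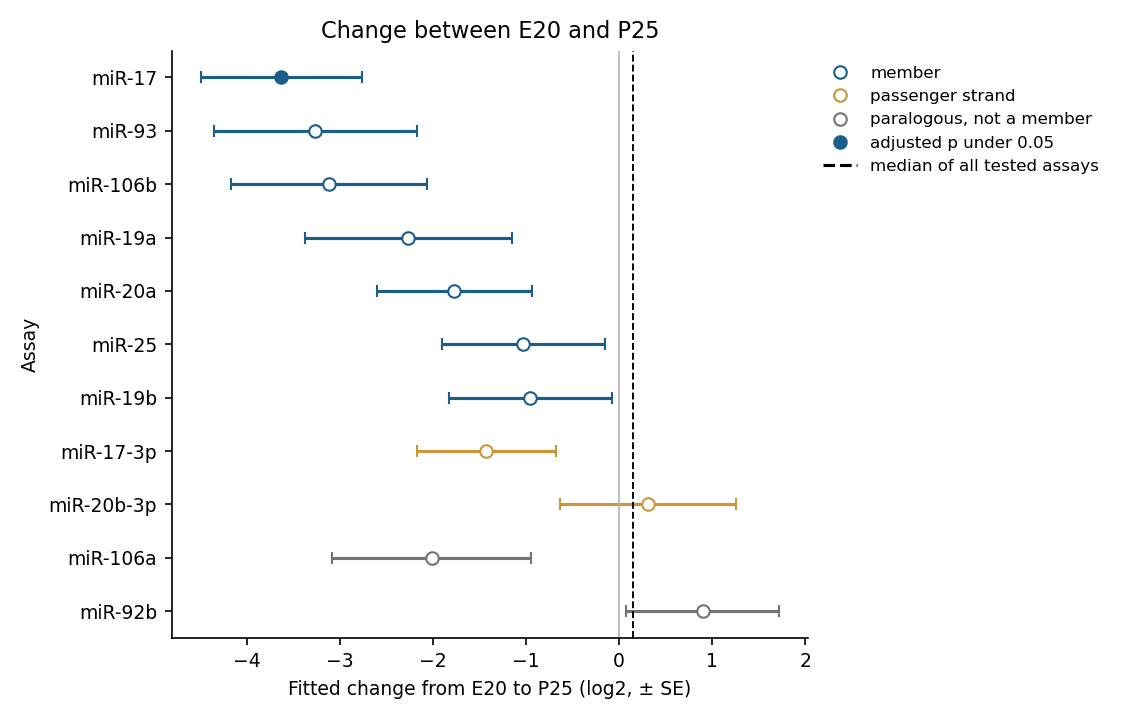
Fitted change from E20 to P25 (log2, horizontal axis) with its SE for the 7 tested members, 2 passenger strands and 2 paralogous miRNAs (vertical axis). The dashed line is the median change of all 192 tested assays, 0.15. The 7 members lie between -3.63 and -0.95, and miR-17 alone is filled, with an adjusted p under 0.05.

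Taken as a list, all 7 tested members had a lower mean at P25 than at E20, with a median change of -2.26, beside 0.15 and 89 of 192 lower over all assays tested. Between E20 and P25, 1 of the 7 was called lower, and the same call was made for 7.81% of the 192 assays. The F test over the 4 ages called 1 of the 7, miR-17 (limma, adjusted p = 0.0497), against 7.81% of all assays, and that call held in 2 of the 12 fits that each left out 1 sample. All 3 P25 samples lay under all 3 E20 samples for 4 of the 7 members (miR-17, miR-20a, miR-106b and miR-93), and for 17.3% of the 156 assays with a CT in all 6 samples. With 3 samples against 3, an exact two-sided permutation test of a single assay cannot give a p under 0.1. The members were not independent of one another, since several share a transcript and all share the array median.

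The linear trend over age, in days from birth, fell for 2 of the 7 members. They were miR-17 (limma, adjusted p = 0.00759) and miR-106b (0.0342), 1 from each cluster, and a falling trend was called for 9.38% of all assays. miR-93 had an adjusted p of 0.0676. The miR-17 trend was called in all 12 fits that each left out 1 sample and the miR-106b trend in 4 of them. Without imputation both were called.

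Between neighbouring ages, the largest fitted step of miR-17 was from P15 to P25, -2.11 ± 0.87, but it did not pass the test (limma, adjusted p = 0.380). From E20 to P5 its change was -0.53 ± 0.87, and from P5 to P15 it was -0.99 ± 0.87. From E20 to P15 it was -1.52 ± 0.87. The fitted P15 mean includes the imputed value of P15 replicate 1, so when the drop came is not settled. None of the other 5 pairs of ages had a member with an adjusted p under 0.05 by limma. Between P5 and P25 the adjusted p of miR-17 was 0.0655 and that of miR-106b 0.240, where 1.56% of all assays were called lower. With the replicate number as a block, since same-numbered samples of the postnatal ages deviated together, the P5 to P25 change of miR-17, -3.10, had an adjusted p of 0.0444 (limma). The labels do not say that these numbers mark a litter or batch, and the pairing was seen in these same values. The block also covered the E20 samples, where 1 of 9 pairs deviated together. The share of all assays called for P5 and P25 with this block is not given here. At an unadjusted p under 0.05, 3 members were lower at P25 than at P5 (miR-17, miR-106b and miR-93), beside 9.38% of all assays, and 2 were lower at P25 than at P15 (miR-17 and miR-93), beside 5.21%. No member had an unadjusted p under 0.05 from E20 to P5, from E20 to P15 or from P5 to P15.

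The clusters were compared within each sample, from the CT values alone, which needs no array reference. Over the 6 members with a CT in all 12 samples, the mean CT of the miR-106b-25 members minus that of the miR-17 to miR-92a members was 2.82 ± 0.22 cycles (SD, n = 3) at E20, 2.53 ± 0.45 at P5, 2.73 ± 0.24 at P15 and 3.62 ± 2.02 at P25. The miR-17 to miR-92a side held miR-19a, miR-20a and miR-19b, so miR-17 and miR-18a did not enter. The differences in the 3 P25 samples were 2.38, 2.53 and 5.96. In the 9 samples up to P15 the difference stayed between 2.16 and 3.04, and at P25 replicate 3 alone stood outside that band. The mean difference moved by 0.81 cycles from E20 to P25, and by -0.36 without P25 replicate 3, so 1 sample set its direction. With every tested member, miR-17 included, and with imputed values it moved by 0.32.

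The seed groups were compared by their values relative to the array median, so unlike the cluster distance this comparison depends on that reference. Over the members with a CT in all 12 samples, the group of miR-20a, miR-93 and miR-106b changed by -2.72 from E20 to P25, from 3.47 ± 0.76 (SD, n = 3) to 0.75 ± 0.82. The miR-19 pair changed by -1.61, from 4.00 ± 0.46 to 2.40 ± 1.19, and miR-25 by -1.03, from 1.69 ± 0.90 to 0.67 ± 1.25. The first group did not overlap between the ages: its E20 samples were at 4.27, 2.76 and 3.38 and its P25 samples at 0.64, 1.62 and -0.01. This had to follow, since each of its 3 members had all P25 samples under all E20 samples. The same held for 17.3% of the 156 assays with a CT in all 6 samples. With miR-17 and its imputed value added, the first group changed by -2.94. The other seed groups overlapped, and their order was not stable: without P25 replicate 1 the miR-19 pair changed by -1.08 and miR-25 by -1.33, and without P25 replicate 3 they changed by -2.25 and -0.31.

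Single pairs of members were also compared within each sample. The CT of miR-17 minus that of miR-20a was 4.07, 4.28 and 4.37 cycles at E20, 4.03, 4.07 and 3.94 at P5, 4.84 and 5.11 at P15, and 6.32, 5.58 and 6.40 at P25. These assays of neighbouring genes, whose products share a seed, kept a steady distance up to P5 and were 1.86 cycles farther apart at P25. There the miR-17 CTs were late, from 34.5 to 36.7, and those of miR-20a were from 28.8 to 30.3. The distance from miR-17 to miR-19b, in the same cluster, was 3.31, 4.65 and 4.64 cycles at E20 and 6.69, 6.14 and 7.79 at P25, a difference of 2.68. For miR-93 minus miR-25 it was -2.06, -2.48 and -1.82 cycles at E20 and -0.64, -0.69 and 1.67 at P25. Of the 21 pairs of tested members, 9 had distances that did not overlap between E20 and P25, and 42.3% of the 12090 pairs among all such assays did the same, so the share among the members was near that background. The count was 6 of 9 pairs within a cluster and 3 of 12 pairs between clusters.

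**Figure D3:**
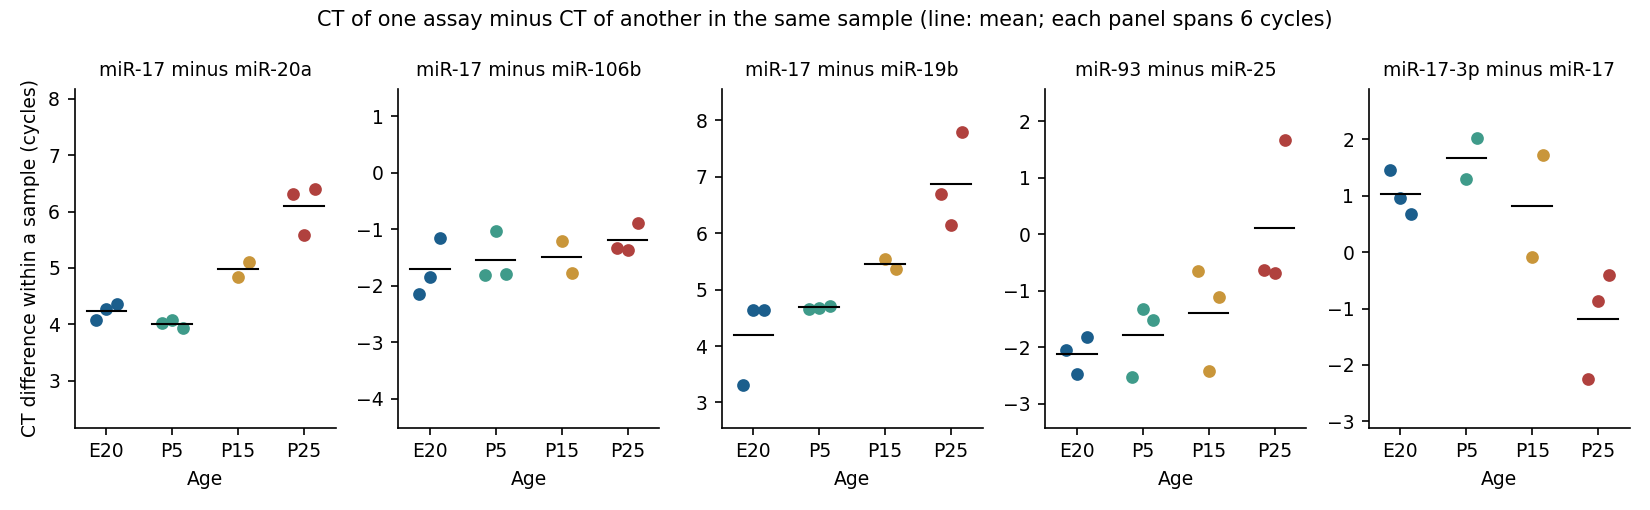
CT of 1 assay minus CT of another in the same sample (cycles, vertical axis) by age (horizontal axis) for 4 pairs of members and for miR-17-3p against miR-17; points are samples and lines are means. miR-17 against miR-106b stays between -2.14 and -0.89, while miR-17 against miR-19b moves from a mean of 4.20 at E20 to 6.87 at P25.

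miR-17 was closest to a member of the other cluster. Its CT minus that of miR-106b was -2.14, -1.84 and -1.15 at E20, -1.81, -1.04 and -1.79 at P5, -1.21 and -1.77 at P15, and -1.33, -1.37 and -0.89 at P25. The SD of this distance over 11 samples, 0.402 cycles, was the smallest of the 21 pairs, and their normalized values had a Pearson's r of 0.97. For miR-17 and miR-20a the SD was 0.92, and for miR-17 and miR-19b it was 1.22. Over the 21 pairs the median SD was 1.17 and the median r 0.718 (from 0.293 to 0.975), beside medians of 1.67 and 0.102 over the 7140 pairs of all assays with a CT in every sample. The points of each pair come from the same samples and share the array median, and low values in P15 replicate 1 and P25 replicate 1 enter many of them. P15 replicate 1 does not enter the pairs with miR-17, which had no CT there, but enters all the other pairs. The SDs and r of the pairs with miR-17 thus rest on another set of samples than the rest. With the mean of the other members found in every sample, miR-20a had the highest r, 0.939, and miR-93 the lowest, 0.593.

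Passenger strands, the opposite arms of the same hairpins, had 4 assays. The strand opposite miR-17 was read by the rat assay named miR-17-3p, which by name fits the RefSeq sequence miR-17-1-3p.
miR-17-1-3p: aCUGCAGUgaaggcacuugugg
Its values were 1.69, 0.33 and 1.00 at E20, 0.55 and 0.06 in 2 samples at P5, 0.91 and -0.02 in 2 samples at P15, and -0.23, 0.11 and -1.13 at P25. The P25 samples lay under those of E20, but the change of -1.43 ± 0.75 was smaller than that of miR-17 and did not pass the test (limma, adjusted p = 0.198). The CT of this strand minus that of miR-17 was 1.45, 0.96 and 0.67 at E20 and -2.25, -0.87 and -0.41 at P25. The guide strand thus came up first in every E20 sample and the passenger strand first in every P25 sample. Which assay comes up first also depends on its primers, and the miR-17 CTs at P25 were late, from 34.5 to 36.7. Distances that did not overlap between E20 and P25 were found in 42.3% of all pairs of assays.

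The strand opposite miR-18a had a CT in 8 samples, and in the 7 samples where both strands were read it differed from miR-18a by 0.28 ± 0.42 cycles (SD). It had a CT in 1 sample at P25, as did miR-18a, in a different sample. The strand opposite miR-20a had a CT in 2 of 12 samples. The strand opposite miR-20b was tested and changed by 0.31 ± 0.95 from E20 to P25 (limma, adjusted p = 0.826), between values of -4.19 and -1.91 at these ages.

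Of the paralogous miRNAs that are not among the 10, miR-106a was found in every sample. The assay carries the mouse name, and the mature product of the rat Mir106a gene in RefSeq is the miR-17 sequence, so which rat miRNA it reads is not known here. Its values were 3.24, 2.57 and 2.66 at E20, -0.73, 2.48 and 1.64 at P5, -1.44, 2.07 and 2.86 at P15, and 0.18, 1.73 and 0.50 at P25. The P25 samples lay under the E20 samples, and the change was -2.01 ± 1.07 (limma, adjusted p = 0.202). miR-92b, which is not part of the clusters, changed by 0.90 ± 0.82 (adjusted p = 0.470). miR-363 and miR-18b, which in the mouse lie in the same cluster as miR-20b, had a CT in 3 and 2 samples at E20 and in 0 samples at P25. With the rat assay of miR-20b, 3 assays of that cluster thus had no CT at P25, but the mouse assay of miR-20b had a CT in 2 samples. The miR-106a assay, named for the same cluster, had a CT in every sample. Among all miRNA assays, 282 to 306 per sample had a CT at E20 and 202 to 223 at P25. The share of all assays found at E20 that had no CT at P25 was not computed, so these losses cannot be told from the general one. miR-363 and miR-18b already came up late at E20, with CTs from 33.8 to 36.5 and of 33.8 and 37.4.

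Among the 114 other assays with a CT in all 12 samples, the 5 whose values were most like the mean of the 6 members were miR-205, an epithelial miRNA, with a Pearson's r of 0.918 over the 12 samples, miR-106a (0.885), miR-99b (0.819), miR-107 (0.816) and miR-103 (0.812). The points share the array median, and P15 replicate 1 was low for the members. None of the 5 was called between E20 and P25, with changes between -2.23 and -0.99.

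**Figure D4:**
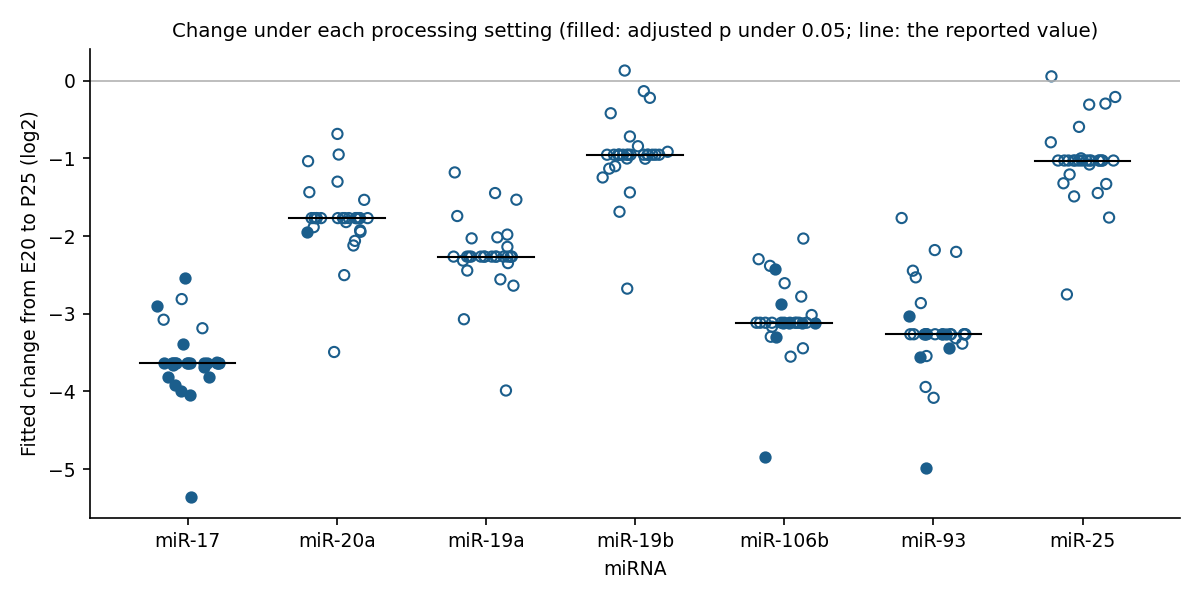
Fitted change from E20 to P25 (log2, vertical axis) of each tested member (horizontal axis) under each processing setting; filled points had an adjusted p under 0.05 and lines are the values given in the text. miR-17 was called in 24 of 28 settings, the reported one included, while miR-19b and miR-25 crossed 0 in 1 setting each.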

How the data were processed

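miRNAs were measured by qRT-PCR in laser-captured parotid acinar cells of 12 samples, 3 at each age. The authors reverse transcribed 1 ng of RNA for each sample and used the Exiqon LNA panel for mouse and rat. They deposited the raw CT values, which are scores on a log scale, not normalized, imputed or pooled. Software and threshold settings are not given in the sources used here. Everything else was computed from these values. A CT under 40 counted as detected, and 1478 of 4500 miRNA wells had none. Values are the array median over the detected miRNAs minus the CT. An assay was tested where every age had 2 or more replicates with a CT (192 of 375), and missing values were imputed from the 10 nearest neighbours after normalization, so values printed are measured and fitted changes include imputed wells. limma 3.58.1 (R 4.3.3) fitted the 4 age means over all 12 samples, with moderated F, contrast and trend statistics (E20 as day -2, birth at E22) and Benjamini-Hochberg adjustment over the 192 assays, at a threshold of 0.05. The procedure was tested on simulated data. Plots were made in matplotlib 3.10.9.

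The 10 members, the marker lists and the tests were chosen with earlier results of these data known. Every member was named, with its passenger strands, its paralogs and the 5 most similar other assays. Over the 120 assays with a CT in all samples, deviations of same-numbered samples from their age means correlated above 0.1 in 9 of 9 pairs among P5, P15 and P25 (from 0.126 to 0.563) and in 1 of 9 pairs with E20. This pairing rests on the values alone, so all contrasts, those among the postnatal ages included, were taken as unpaired except where the replicate block is named.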

Additional observations from a re-analysis of the deposited data

How the results depend on the processing

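Between E20 and P25 the change of the 7 tested members was negative under every setting run, except for miR-19b (0.13) and miR-25 (0.055) with detection in at least 6 of 12 samples and the median taken after imputation. That setting and the one without both P5 replicate 1 and P15 replicate 1 were chosen after seeing the data. The number of members called between E20 and P25 (1) was 0 with a CT required in all 12 samples, which removes miR-17, with missing values set to CT 40, with CTs above 35 not detected, where miR-17 and miR-106b did not pass the filter and were not tested, and with small nuclear RNAs as reference, of which U6 had no CT in P15 replicate 3 and P25 replicate 3. It was 2 with only the ages compared, 3 with CTs above 37 not detected, the median of the miRNAs found in all samples, no normalization, the replicate block, and without P5 replicate 1 and P15 replicate 1, and 4 with the mean of the miRNAs found in all samples. It was between 0 (without E20 replicate 1 or P25 replicate 1) and 3 (without P15 replicate 1) with each sample left out. Over all assays and in either direction, 23 of 192 were called in the reported fit. That count was 35 with only the ages compared, 26 of 155 with CTs above 37 not detected, and 26 without normalization. It was 40 and 35 with the median and mean of the miRNAs found in all samples, and 32 with the replicate block. Without P5 replicate 1 and P15 replicate 1 it was 41, and without P15 replicate 1 alone 39.

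The F test (1) called 0 under 8 settings: detection at 1 or more ages, in all 12 samples, or in at least 6 of 12 with the median after imputation, missing values at CT 40, CTs above 35 not detected, small nuclear RNAs, no normalization, and ordinary statistics. It called 2 without P5 replicate 1 and P15 replicate 1, and from 0 to 2 with each sample left out. The other pairs of ages (0) gave 1 call without imputation, with the median or mean of the miRNAs found in all samples, with the median after imputation and with the replicate block, 2 without P5 replicate 1 and P15 replicate 1, and 0 to 2 with each sample left out. The trend (2) gave 1 with a CT in all 12 samples, with ordinary statistics and with at least 6 of 12, 0 at CT 40, CT 35 and with small nuclear RNAs, 4 with the mean of the miRNAs found in all samples, and 3 with CT 37, no normalization and the replicate block. It gave 1 or 2 with each sample left out. The shares of all assays called by the F test, the trend and the other pairs under these settings are not given here. The counts of members thus cannot be set beside the general number of calls.

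The median change of the members (-2.26) was -1.45 with small nuclear RNAs, -3.99 without normalization and -1.18 with at least 6 of 12, where the median of all assays was 0.96, -1.58 and 1.02. It was -1.53 with the median after imputation, where the median of all assays was 0.88. It ranged from -2.64 to -1.74 with each sample left out. The distance between the clusters (0.81) ranged from -0.36 to 1.43 with each sample left out and was -0.33 with CTs above 35 not detected. The F test and the trend use all ages, so a fit of only the ages compared was not run for them. The causes were not tested.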
